A study of Homo sapiens with 9 samples.

Results

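The very long multi-exon genes on this array were those with 80 or more probe sets (short stretches, usually of 1 exon, each read by a small group of probes) mapped to 1 gene symbol alone, counted before any filter on signal. The rule found 97 genes of 19426, with 10642 of the array's 1384231 probe sets. They were compared with 7564 genes of 10 to 20 probe sets, which are referred to here as genes of ordinary size. The number of probe sets per gene ran from 80 to 451, with a median of 98, and 41 of the 97 genes had 100 or more. The rule counts probe sets and not bases. It therefore also took 9 symbols that stand for near-identical copies or an unnamed locus, such as NPIP and GOLGA8IP, which belong to families spread over duplicated stretches of the genome, and SNRPN, whose transcribed locus holds arrays of repeated small RNA genes. Signal cannot be assigned to 1 copy for those 9, and the results below are also given without them where they matter. All 97 genes kept a gene level after the signal filter.

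Genes with very many exons encode some of the largest proteins of the body: the springs of the sarcomere, the motor chains of cilia, the linkers between cytoskeleton and membrane, basement membrane proteins, endocytic receptors and giant ubiquitin ligases. Each transcript takes long to make and carries many splice sites and, often, many possible cleavage and polyadenylation sites inside introns. Cleavage at such a site gives a truncated transcript, and an exon may be included or skipped without any change in the amount of the rest of the transcript.

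The arrays came from Flip-In-293 cells, a human embryonic kidney line with a site for targeted integration. All 9 cultures had been infected with lentivirus that expressed a short hairpin RNA and had been grown for 10 days before total RNA was extracted. The hairpin was non-silencing in the 3 control arrays, was directed against CPSF3, the endonuclease that cuts pre-mRNA at its 3' end, in 3 arrays, and against RBFOX2, a regulator of splicing (fox2 in the labels), in 3 arrays. The array labels call the replicates biological and the series description calls them technical, so every p-value below sets a change against the spread of these arrays, and that spread may be only technical.

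The promoters of 4 of the genes whose level passed the test are shown here because 2 of each direction could be read from the same reference table and because they differ in their number of GC boxes, a motif common at promoters of broadly expressed genes. The 4 were picked after their values were seen. Each sequence holds the 250 bases before the RefSeq transcript start on the gene's own strand (RefSeq, GRCh38.p14), and the capitals mark this box, GGGCGG or its reverse complement CCGCCC, with overlapping matches counted. LRP1 lies at chr12:57128233-57128482 on the plus strand, HSPG2 at chr1:21937311-21937560, MYCBP2 at chr13:77327095-77327344 and USP34 at chr2:61471088-61471337, these 3 on the minus strand.
LRP1: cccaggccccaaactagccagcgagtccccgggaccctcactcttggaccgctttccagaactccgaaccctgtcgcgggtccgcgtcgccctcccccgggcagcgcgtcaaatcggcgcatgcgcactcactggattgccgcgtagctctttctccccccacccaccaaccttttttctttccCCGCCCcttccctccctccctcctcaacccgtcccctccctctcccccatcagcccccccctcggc
HSPG2: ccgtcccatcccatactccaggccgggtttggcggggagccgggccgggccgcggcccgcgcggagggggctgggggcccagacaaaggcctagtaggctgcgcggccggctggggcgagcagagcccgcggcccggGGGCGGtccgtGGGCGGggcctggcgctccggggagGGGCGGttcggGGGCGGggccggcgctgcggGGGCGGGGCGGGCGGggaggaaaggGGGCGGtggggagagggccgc
MYCBP2: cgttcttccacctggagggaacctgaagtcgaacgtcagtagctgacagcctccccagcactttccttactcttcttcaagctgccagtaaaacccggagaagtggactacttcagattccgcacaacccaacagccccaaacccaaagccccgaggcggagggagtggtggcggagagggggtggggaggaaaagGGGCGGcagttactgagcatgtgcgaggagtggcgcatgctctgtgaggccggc
USP34: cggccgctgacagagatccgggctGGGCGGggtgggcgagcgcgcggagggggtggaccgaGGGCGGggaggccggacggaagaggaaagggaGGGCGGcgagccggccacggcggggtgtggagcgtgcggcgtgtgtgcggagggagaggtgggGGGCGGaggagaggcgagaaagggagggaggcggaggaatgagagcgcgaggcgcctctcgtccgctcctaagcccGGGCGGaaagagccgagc
LRP1 and HSPG2 were lower on the arrays labelled CPSF3 knockdown and held 1 and 8 GC boxes. MYCBP2 and USP34 were higher there and held 1 and 5. A promoter was found in the table for 75 of the 97 very long genes. Of these genes 57 (76%) had a GC box in this window of any of their listed promoters, against 64.8% of 5924 genes of 10 to 20 probe sets. A gene with more listed promoters thus had more chances of a match, which limits this comparison. Counted over all 35116 promoters in the table, several of which can belong to 1 gene, the share was 42.6%. A match is a description of letters and not of a bound site.

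The targeted genes were read first as a check of the labels. The CPSF3 gene level (log2 signal, the median of a gene's kept probe sets) was 9.33, 9.29 and 9.80 on the control arrays and 9.60, 9.27 and 9.27 on the arrays labelled CPSF3 knockdown. These ranges overlapped, and the change was -0.09 ± 0.16 (SE, adjusted p = 0.752, limma, 2-sided, Benjamini-Hochberg over 16748 genes). The arrays are therefore called the arrays labelled CPSF3 knockdown throughout. RBFOX2 was 9.66, 9.54 and 9.38 on control arrays and 8.95, 8.82 and 9.05 on the RBFOX2 knockdown arrays, below every control array, with a change of -0.58 ± 0.12 that missed the threshold (adjusted p = 0.0617, limma). Of 8 measured marker genes of the cell line, 4 (KRT8, VIM, NEFL and ENO2) were called lower on the arrays labelled CPSF3 knockdown and 1 (ENO2) on the RBFOX2 arrays; their summed log2 level was 77.97 to 79.38 on control, 73.81 to 74.72 on labelled CPSF3 and 75.33 to 76.51 on RBFOX2 arrays. Of 35 markers of muscle, fibroblast, blood, endothelial, keratinocyte and neuronal cells, 0 were called in either comparison with control (limma; 4 and 2 at an unadjusted p under 0.05), and their summed level was 289.7 to 291.8 on control arrays, 283.8 to 291.7 on labelled CPSF3 arrays and 291.1 or more on RBFOX2 arrays. In such bulk RNA, fewer cells of a type and less RNA per cell cannot be told apart, and the part of these markers in the results below was not tested.

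The very long genes were present over the whole range of signal. Their mean level over the 9 arrays ran from 7.45 for DNAH8, an axonemal dynein heavy chain of motile cilia, to 11.09 for HUWE1, a ubiquitin ligase, with a median of 8.63 against 8.75 for genes of 10 to 20 probe sets. The share of probe sets above the signal minimum (6.97, the median of all probe sets) was 71.5% for the very long genes, 73.5% for genes of 10 to 20 probe sets and 75.2% for all genes. In 33 genes 90% or more of the probe sets passed, and in 21 genes fewer than 50% did. The 21 were mainly genes of muscle, cilia, brain or epithelia, among them TTN, NEB, RYR2, RYR3, DMD, SYNE1, LRP1B, RELN, CSMD1, PKHD1 and 6 axonemal dyneins. A gene level uses only the probe sets above the minimum, so the low end of the levels is bounded by it.

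The 5 members with most probe sets show this range. TTN, the molecular spring of the sarcomere, had 451 probe sets, of which 112 passed, and its level was 7.65, 7.68 and 7.79 on control arrays, 7.58, 7.72 and 7.64 on arrays labelled CPSF3 knockdown and 7.84, 7.79 and 7.61 on RBFOX2 arrays. The 3 groups overlapped. NPIP, a family of near-identical copies, had 268 probe sets with 262 kept and a much higher level, 10.26 ± 0.15 (SD, n = 3) on control arrays. SYNE1, the giant nuclear envelope linker nesprin 1, kept 91 of 201 (7.93 ± 0.14, SD, n = 3), GOLGA8IP kept 143 of 184 (mean of 8.76 over the 9 arrays) and NEB, the ruler of the thin filament, kept 58 of 183 (7.67 ± 0.07, SD, n = 3). None of these 5 was called, or had an unadjusted p under 0.05, in any of the 3 comparisons of gene levels (limma).

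A gene level built from many probe sets was more precise by a small margin. The median residual SD of a gene level fell with each step in the number of probe sets, from 0.176 for genes of fewer than 10 and 0.163 for genes of 10 to 20 to 0.128 for the very long genes. The median SE of a change, which borrows spread from all genes, was 0.137, 0.132 and 0.120 in the same order. Among members above the upper quartile of the level of all genes (9.39), unnamed loci left out, the lowest SDs over the 9 arrays were those of HUWE1 (SD of 0.0836), TNRC18 (SD of 0.0838) and PRKDC, the catalytic subunit of the DNA-dependent protein kinase (SD of 0.119).

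**Figure D1:**
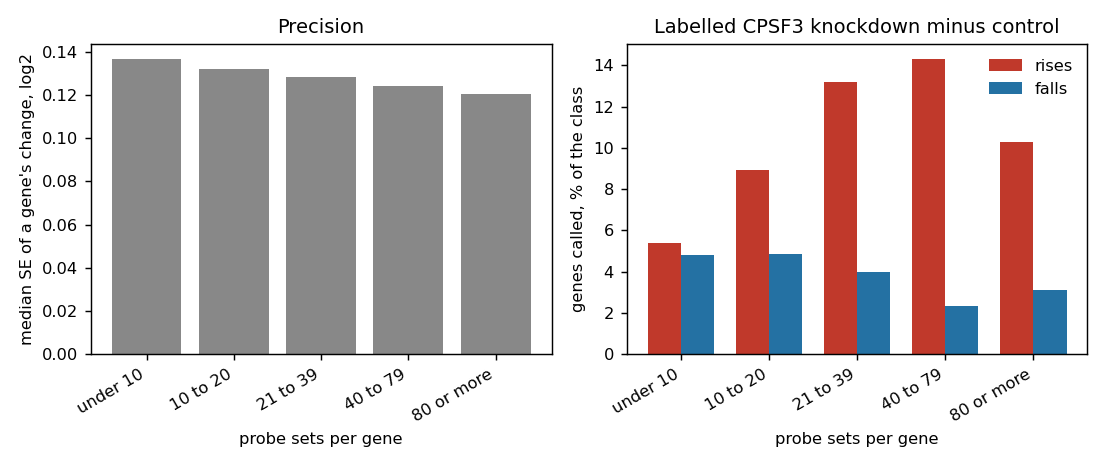
Left, median SE of a gene's log2 change by the number of probe sets per gene (0.137 for fewer than 10, 0.120 for 80 or more). Right, percent of genes in each class that were called higher (red) or lower (blue) on the arrays labelled CPSF3 knockdown; 10 of 97 very long genes were higher and 3 lower.

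On the arrays labelled CPSF3 knockdown, 13 of the 97 very long genes changed against control: 10 rose and 3 fell. The rises were MUC16, MYCBP2, BIRC6, WDFY3, USP34, TRRAP, ADGRV1, FRYL, MDN1 and KMT2C, and the falls were LRP1, LAMA1 and HSPG2, by 1.36 to 1.59 fold (limma, 2-sided, adjusted p from 0.00585 to 0.0383, 3 arrays a group). The share called, 13.4%, was near that of all genes (14.4%) and that of genes of 10 to 20 probe sets (13.8%). By direction, 10% of all genes were called higher and 4.38% lower. No array of one group lay within the range of the other for 34 of the 97 genes (35.1%), against 31.1% of all genes, and 24 (24.7%) had an unadjusted p under 0.05, against 28.2%. The median change was 0.004 for the very long genes, -0.003 for genes of 10 to 20 probe sets and 0.009 over all genes, with 49 of the 97 higher and 48 lower.

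**Figure D2:**
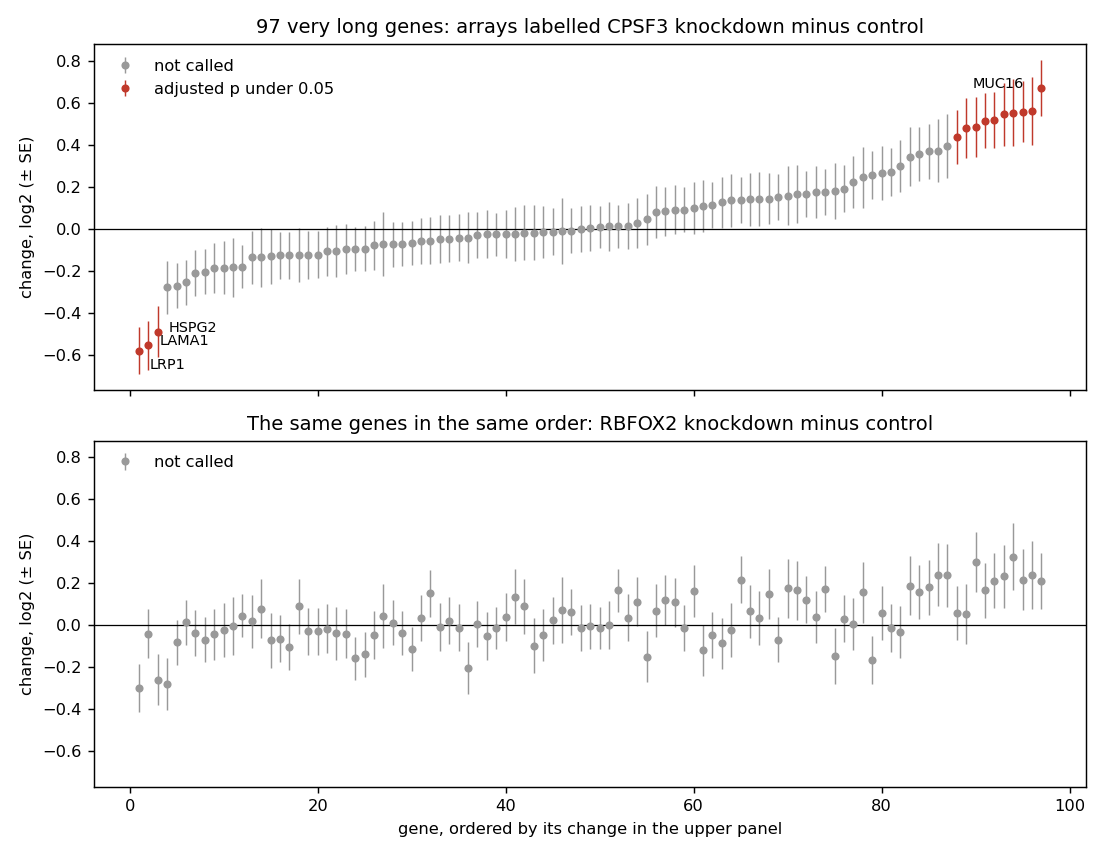
Log2 change (± SE) of each of the 97 very long genes, ordered by its change on the arrays labelled CPSF3 knockdown (upper panel) and shown in the same order for RBFOX2 knockdown (lower panel). The 13 called genes (red) run from -0.58 for LRP1 to 0.67 for MUC16, 0 genes were called in the lower panel, and both panels use the same control arrays.

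The 3 genes that fell encode proteins of the cell surface or the matrix around cells. LRP1, an endocytic receptor of the LDL receptor family, had levels of 9.42, 9.30 and 9.44 on control arrays, 8.68, 8.89 and 8.84 on arrays labelled CPSF3 knockdown and 9.07, 9.21 and 8.98 on RBFOX2 arrays. The 3 groups did not overlap one another, with the RBFOX2 arrays between the other groups. The change against control was -0.58 ± 0.11 (SE, adjusted p = 0.00585, limma), and 100 of its 104 kept probe sets were lower. LAMA1, a laminin chain of basement membranes, was 8.82, 8.65 and 8.77 on control arrays and 8.13, 8.26 and 8.18 on arrays labelled CPSF3 knockdown. Its RBFOX2 arrays, 8.57, 8.90 and 8.66, overlapped control. The change was -0.56 ± 0.12 (SE, adjusted p = 0.00841, limma) with 72 of 76 probe sets lower. HSPG2, which encodes the basement membrane proteoglycan perlecan, was 9.28, 9.05 and 9.27 on control arrays and 8.70, 8.78 and 8.65 on arrays labelled CPSF3 knockdown. Those groups lay apart, and each of its 120 kept probe sets was lower, with changes from -1.35 to -0.01 on the log2 scale. The change was -0.49 ± 0.12 (SE, adjusted p = 0.0179, limma).

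The largest rise was that of MUC16, a membrane-bound mucin known as the source of the CA125 antigen. Its level was 8.33, 8.24 and 8.45 on control arrays, 9.20, 8.86 and 8.98 on arrays labelled CPSF3 knockdown and 8.63, 8.32 and 8.71 on RBFOX2 arrays. The labelled CPSF3 arrays were above all others, while the RBFOX2 arrays overlapped control. The change was 0.67 ± 0.13 (SE, adjusted p = 0.00644, limma), a 1.59-fold difference, and 82 of 84 kept probe sets were higher.

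The giant ubiquitin ligases and deubiquitinases held 3 of the 10 rises. They were counted from a list of such genes, of which 10 are very long. Of these 3 rose and 0 fell, where 10% of all genes were called higher and 4.38% lower. Their median change was 0.18 against 0.01 for all genes, and their median level was 9.25 against 8.76. The part of signal level in these values was not tested. MYCBP2, a ubiquitin ligase known for its part in axon growth, was 8.40, 8.41 and 8.95 on control arrays and 9.31, 8.97 and 9.16 on arrays labelled CPSF3 knockdown, a change of 0.56 ± 0.16 (SE, adjusted p = 0.0341, limma). The groups only just stayed apart, with control replicate 3 close to the lowest labelled CPSF3 array. BIRC6, an inhibitor of apoptosis with ubiquitin-conjugating activity, was 9.36, 9.11 and 9.38 on control arrays and 10.17, 9.72 and 9.63 on arrays labelled CPSF3 knockdown, a change of 0.56 ± 0.15 (SE, adjusted p = 0.0225, limma). Replicate 1 of the labelled CPSF3 arrays stood above the other two. USP34, a deubiquitinase, was 9.49, 9.23 and 9.69 on control arrays and 10.26, 9.90 and 9.88 on arrays labelled CPSF3 knockdown, with a change of 0.55 ± 0.15 (SE, adjusted p = 0.027, limma). HUWE1 had the lowest change of this list, -0.10 ± 0.10 (SE), and did not pass the test.

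Regulators of transcription and of the DNA damage kinase family held a further pair of rises, where 10% of all genes were called higher and 4.38% lower. TRRAP, the scaffold of histone acetyltransferase complexes and a kinase relative without kinase activity, was 9.82, 9.52 and 9.75 on control arrays and 10.42, 10.13 and 10.09 on arrays labelled CPSF3 knockdown. The groups lay apart (change of 0.52 ± 0.13, SE, adjusted p = 0.0195, limma). The other members of its list of 3 were PRKDC, at 0.15 ± 0.11 (SE, 90 of 106 probe sets higher), and SMG1, a kinase of nonsense-mediated decay with near-identical copies in the genome, at 0.05 ± 0.12 (SE), and neither passed. Of the 3 chromatin regulators, KMT2C, a histone H3 lysine methyltransferase, rose by 0.44 ± 0.13 (SE, adjusted p = 0.0383, limma), from 9.93, 9.62 and 10.00 to 10.45, 10.19 and 10.22. MLL2, a related methyltransferase whose older symbol is kept as the platform gives it, changed by 0.26 ± 0.11 (SE, adjusted p = 0.158) and EP400, a chromatin remodelling ATPase, by 0.13 ± 0.12 (SE); neither passed.

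The remaining rises came from membrane traffic, receptors and no list, where 10% of all genes were called higher and 4.38% lower. WDFY3, an adaptor of selective autophagy, was 8.45, 8.19 and 8.78 on control arrays and 9.29, 8.94 and 8.86 on arrays labelled CPSF3 knockdown, a change of 0.55 ± 0.16 (SE, adjusted p = 0.0337, limma). It was the only one called of 8 membrane traffic and lipid transfer genes, whose median change was 0.14. ADGRV1, an adhesion receptor of sensory hair cells, rose by 0.51 ± 0.13 (SE, adjusted p = 0.0196, limma), from 8.12, 8.01 and 8.37 to 8.85, 8.59 and 8.61. With LRP1 it made 1 rise and 1 fall among 10 giant cadherins and receptors, whose median change was -0.14. MDN1, the AAA ATPase midasin of ribosome assembly, rose by 0.48 ± 0.14 (SE, adjusted p = 0.0375, limma) with 127 of 130 probe sets higher. FRYL, a relative of the Drosophila gene furry, rose by 0.49 ± 0.14 (SE, adjusted p = 0.0382, limma).

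Other families of very long genes held few calls or none, where 10% of all genes were called higher and 4.38% lower. Of 10 collagens, laminins and other matrix genes, 0 rose and 2 fell (LAMA1 and HSPG2), with a median change of -0.05; FBN2, a fibrillin, had the highest at 0.16 ± 0.14 (SE). Of 7 cytoskeletal linkers 0 were called (limma, 1 at an unadjusted p under 0.05, median change of 0.14). The highest of these was DST, which links intermediate filaments to adhesion sites, at 8.98, 8.68 and 9.15 on control arrays and 9.43, 9.26 and 9.23 on arrays labelled CPSF3 knockdown. Its groups did not overlap, its change was 0.37 ± 0.13 (SE, adjusted p = 0.0774, limma), and it was called in 3 of the other settings. Of 14 dyneins and other microtubule or ciliary genes 0 were called (2 at an unadjusted p under 0.05, and DNAH11 called with the filter at the upper quartile; median of -0.03), with AKAP9, a centrosome scaffold, at 0.34 ± 0.14 (SE) and DNAH8 at -0.18 ± 0.14 (SE, 9 kept probe sets of 109). Of 5 sarcomere and calcium release genes 0 were called (0 at an unadjusted p under 0.05; median of -0.01), from NEB at -0.13 ± 0.11 (SE) to RYR2, the cardiac calcium release channel, at 0.08 ± 0.12 (SE). ABCA13 and CACNA1C, a transporter and a calcium channel, and MYO15A, an unconventional myosin of hair cells, changed by -0.02 ± 0.13, -0.06 ± 0.11 and -0.00 ± 0.11 (SE) and were not called. The lists cover 73 of the 97 genes, and MUC16, MDN1 and FRYL are among the 24 outside them.

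A larger share was called among genes of higher signal. Split at the quartiles of the level of all genes, 3.03% of 33 very long genes in the lowest class were called, 13.6% of 22 in the next, 19.2% of 26 in the one after and 25% of 16 in the highest. The shares for genes of 10 to 20 probe sets were 7.4%, 12.6%, 15.7% and 19.5%. The difference between these series of shares was not tested. Among the 33 genes with 90% or more of their probe sets above the minimum, 7 rose and 2 fell, with a median change of 0.11. Among the 43 genes with 50% to 90%, 3 rose and 1 fell, with a median change of -0.01. Among the 21 genes with fewer than 50%, 0 were called, with a median change of -0.03. At an unadjusted p under 0.05 there were 12, 12 and 0 in the same order (limma). Over all genes, 10% were called higher, 4.38% were called lower and 28.2% had an unadjusted p under 0.05. No such split was made for genes of 10 to 20 probe sets, and the difference between the classes was not tested.

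**Figure D3:**
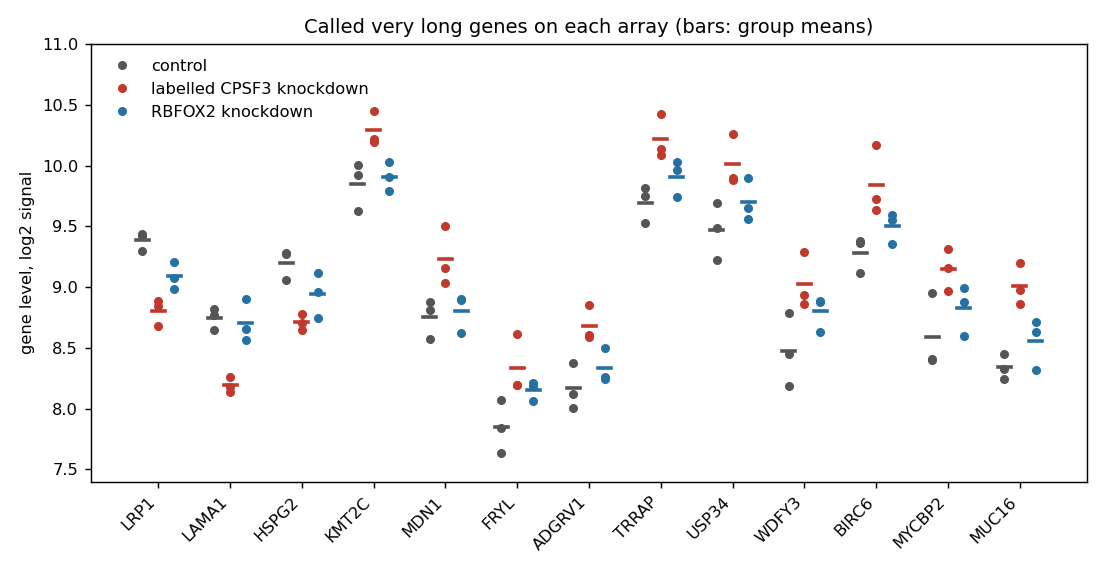
Gene level (log2 signal, vertical axis) of the 13 called very long genes on each of the 9 arrays (points) with group means (bars). LRP1, LAMA1 and HSPG2 are lowest on the arrays labelled CPSF3 knockdown, and the other 10 genes are highest there.

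The calls leaned on particular arrays, among very long genes as over all genes. In the 10 genes that rose, replicate 1 was the highest of the arrays labelled CPSF3 knockdown in 10. Control replicate 2 was the lowest control array in 9 and control replicate 3 the highest control array in 8. The median of all genes had the same order. It was highest of its group on labelled CPSF3 replicate 1 (8.84), lowest of the control arrays on replicate 2 (8.67) and highest on replicate 3 (8.80). Without replicate 1 of the labelled CPSF3 arrays 3 very long genes were called (3.09%, against 5.76% of all genes), without control replicate 1 there were 4 (4.12%, against 6.46%) and without control replicate 2 there were 4 (4.12%, against 7.19%). Without control replicate 3 there were 15 (15.5%, against 20.5% of all genes). LRP1, LAMA1 and MUC16 kept their calls in all 19 other settings. HSPG2, TRRAP and BIRC6 each lost theirs in 3, ADGRV1 and USP34 in 4, MDN1 and MYCBP2 in 6, KMT2C and WDFY3 in 7 and FRYL in 9; no direction changed for these 13 genes in those settings. Across the 13 genes, 93.2% to 100% of the kept probe sets of a gene moved the same way as its level, with a median of 96.4%; probe sets of a gene share its RNA and its arrays and are not replicates.

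Under RBFOX2 knockdown, 0 of the 97 very long genes were called against control (limma), where 0.173% of all genes (29) were, 0.0299% higher and 0.143% lower. At an unadjusted p under 0.05 there were 2 (2.06%), against 13.6% of all genes and 14.3% of genes of 10 to 20 probe sets, and 0 were called in the other settings run. In 2 of those settings far more of all genes were called for RBFOX2: 9.23% without control replicate 3 and 9.03% with array weights. The arrays did not overlap for 10 genes (10.3%), against 14.1% of all genes. Changes ran from -0.30 to 0.33, with a median of 0.01 against 0.02 for genes of 10 to 20 probe sets, and 0 of the 97 exceeded 0.5, where 4.12% of genes of 10 to 20 probe sets did. The smallest p-values belonged to LRP1 at -0.30 ± 0.11 (SE, adjusted p = 0.257), MUC4, a mucin, at -0.28 ± 0.12 (adjusted p = 0.334), HSPG2 at -0.26 ± 0.12, FRYL at 0.30 ± 0.14 and WDFY3 at 0.33 ± 0.16. MUC4 was 9.42, 9.25 and 9.28 on control arrays and 8.87, 9.14 and 9.10 on RBFOX2 arrays, which lie apart by little. In the 13 genes called on the arrays labelled CPSF3 knockdown, the RBFOX2 mean lay between the means of the other groups. The RBFOX2 arrays overlapped control in 12 of them. The RBFOX2 comparison uses the same control arrays as the one above, so the values of a gene in both are not independent.

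Set against each other, the arrays labelled CPSF3 knockdown and the RBFOX2 arrays gave 0 calls among the very long genes (limma), where 0.4% of all genes were called, 0.137% higher and 0.263% lower. At an unadjusted p under 0.05 there were 14 (14.4%), against 13.3% of all genes. With array weights 2 were called (2.06%, against 3.59% of all genes), and 2 with the mean as gene level (2.06%, against 0.836%). The arrays of 25 genes did not overlap (25.8%, against 20.4% of all genes), and the median change was -0.00. The smallest p-values belonged to LAMA1 at -0.52 ± 0.12 (SE, adjusted p = 0.0855), MUC16 at 0.46 ± 0.13 (adjusted p = 0.172), MLL2 at 0.42 ± 0.11 (adjusted p = 0.148), MDN1 at 0.43 ± 0.14 and KMT2C at 0.38 ± 0.13. MLL2 was 9.59, 9.40 and 9.34 on the arrays labelled CPSF3 knockdown and 9.06, 8.97 and 9.04 on the RBFOX2 arrays, with the control arrays (9.32, 9.11 and 9.13) between.

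Taken as a class, the very long genes lay below genes of 10 to 20 probe sets on every array. Their median level was 8.54, 8.46 and 8.64 on control arrays, 8.70, 8.62 and 8.62 on arrays labelled CPSF3 knockdown and 8.55, 8.62 and 8.66 on RBFOX2 arrays. The difference from the median of genes of 10 to 20 probe sets was -0.18, -0.21 and -0.15 on control arrays, -0.12, -0.15 and -0.11 on arrays labelled CPSF3 knockdown and -0.23, -0.13 and -0.11 on RBFOX2 arrays. The group means were -0.18 ± 0.03, -0.13 ± 0.03 and -0.16 ± 0.06 (SD, n = 3). The control and labelled CPSF3 ranges met only at their ends, with control replicate 3 at -0.1539 and labelled CPSF3 replicate 2 at -0.1547. The RBFOX2 range overlapped both. Whether the difference of medians changed between groups was not tested.

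**Figure D4:**
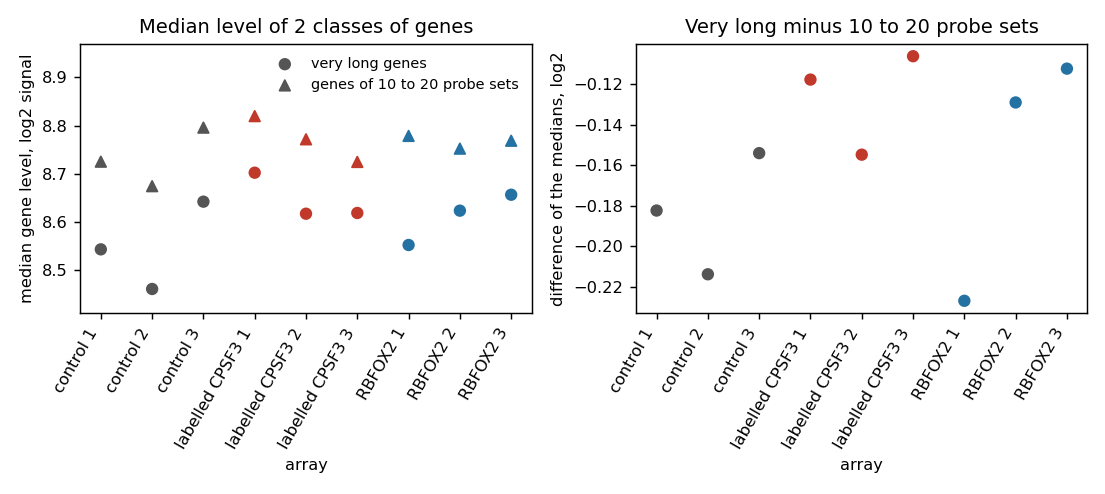
Left, median gene level (log2 signal) of the 97 very long genes (circles) and of genes of 10 to 20 probe sets (triangles) on each array, coloured by group. Right, the difference of the medians, which is below 0 on all 9 arrays and overlaps between the groups (-0.21 to -0.15 on control, -0.15 to -0.11 on labelled CPSF3, -0.23 to -0.11 on RBFOX2 arrays).

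Exon signal, the value of a probe set less that array's gene level, shows a shift of 1 stretch relative to the rest of the gene. Of the 7615 probe sets of very long genes, 0 passed the test on the arrays labelled CPSF3 knockdown, where 0% of all 257548 did (limma); the smallest adjusted p was 0.0603. At an unadjusted p under 0.05 there were 862 (11.3%), against 12.7% of all, of which 383 were higher and 479 lower. For RBFOX2 against control 0 were called (0% of all), with 506 (6.64%, against 7.88%) at an unadjusted p under 0.05, and for the arrays labelled CPSF3 knockdown against RBFOX2 0 were called (0% of all), with 350 (4.6%, against 4.24%). Shifts larger than 1 on the log2 scale made up a smaller share in very long genes than among all probe sets, a difference that was not tested: 14 (0.184%) against 0.648% on the arrays labelled CPSF3 knockdown, 5 (0.0657%) against 0.274% for RBFOX2, and 2 (0.0263%) against 0.0377% for labelled CPSF3 against RBFOX2. Of the 14, 6 were in CDH23.

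With the mean in place of the median as gene level, 16 probe sets of very long genes were called on the arrays labelled CPSF3 knockdown (0.21%, against 0.263% of all; limma, adjusted p under 0.05), 2 higher and 14 lower, in 8 genes. CDH23 held 7 of them, UBR4 and USP24 held 2 each, and MACF1, HSPG2, BIRC6, GOLGA8IP and SYNE2 held 1 each. In the same setting 0 were called for RBFOX2 (0.000388% of all probe sets) and 0 for labelled CPSF3 against RBFOX2 (0% of all; limma). In UBR4, a ubiquitin ligase that recognises N-terminal degradation signals, the exon signal of probe set 2399472 (relative to the gene's median) was -1.13, -1.64 and -1.59 on control arrays, -2.47, -2.96 and -3.11 on arrays labelled CPSF3 knockdown and -2.38, -1.96 and -2.85 on RBFOX2 arrays. The arrays labelled CPSF3 knockdown and the RBFOX2 arrays all lay below the control arrays. The shift against the mean level was -1.44 ± 0.24 (SE, adjusted p = 0.0456) on the arrays labelled CPSF3 knockdown.

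The pair of called rises was in SYNE2 and USP24. Probe set 3539856 of SYNE2, which encodes the nuclear envelope linker nesprin 2, had an exon signal of -2.40, -2.35 and -2.14 on control arrays, -1.16, -1.18 and -1.45 on arrays labelled CPSF3 knockdown and -1.29, -1.40 and -1.30 on RBFOX2 arrays. The arrays labelled CPSF3 knockdown and the RBFOX2 arrays were all above the control arrays. Its shift against the mean level was 0.98 ± 0.13 (SE, adjusted p = 0.0318, limma) on the arrays labelled CPSF3 knockdown and 0.96 ± 0.13 (SE, adjusted p = 0.246) on RBFOX2 arrays, and both use the same control arrays. Probe set 2413984 of USP24, a deubiquitinase, was -1.67, -1.87 and -2.08 on control arrays and -1.08, -1.03 and -0.93 on arrays labelled CPSF3 knockdown. The RBFOX2 arrays, at -1.35, -1.47 and -1.18, were also all above the control arrays. Its shift against the mean level was 0.81 ± 0.13 (SE, adjusted p = 0.0414, limma) on the arrays labelled CPSF3 knockdown. On RBFOX2 arrays it was 0.61 ± 0.13 (SE, adjusted p = 0.296, limma).

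For RBFOX2 the smallest p-values among the members' probe sets were those of SYNE2 3539856, of MACF1 2331483 and 2331354, of DNAH9 3710569 and of HUWE1 4009383, each with an adjusted p = 0.405 (limma). The SYNE2 probe set is the one above that passed the filter only through the groups where it is higher. MACF1, which crosslinks microtubules and actin, had at probe set 2331354 an exon signal of -0.65, -0.54 and -0.65 on control arrays, -0.53, -0.91 and -0.70 on arrays labelled CPSF3 knockdown and -1.24, -1.93 and -1.75 on RBFOX2 arrays. The RBFOX2 arrays were below all others, a shift of -1.02 ± 0.18 (SE) against control. At probe set 2331483 of the same gene it was -0.49, -0.05 and -0.36 on control arrays, -1.03, -1.03 and -1.10 on arrays labelled CPSF3 knockdown and -1.10, -1.16 and -1.46 on RBFOX2 arrays. There the arrays of both labelled groups were below all control arrays. For the arrays labelled CPSF3 knockdown against RBFOX2 the smallest p belonged to probe set 2586145 of LRP2, the endocytic receptor megalin, at 0.49, 0.75 and 0.70 on the arrays labelled CPSF3 knockdown against 1.41, 1.50 and 1.47 on RBFOX2 arrays (control 1.21, 1.17 and 1.28), with an adjusted p = 0.7 (limma). CDH23 3251164 and 3251124, MLL2 3453663 and MACF1 2331354 followed.

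CDH23, which encodes cadherin 23 of the tip links of hair cells, held a run of probe sets that shifted together. Its gene level was 8.62, 8.56 and 8.45 on control arrays, 8.25, 8.26 and 8.35 on arrays labelled CPSF3 knockdown and 8.51, 8.64 and 8.52 on RBFOX2 arrays. The change of -0.26 ± 0.11 (SE, adjusted p = 0.128, limma) on the labelled CPSF3 arrays missed the threshold, although those arrays were below all control arrays. It was called with the filter at the upper quartile, with array weights and with the mean as gene level. When its 70 kept probe sets were ordered by their identifiers, the first 24 were lower together. The median signal of these 24 was 9.58, 9.48 and 9.45 on control arrays, 8.51, 8.55 and 8.61 on arrays labelled CPSF3 knockdown and 8.99, 9.30 and 8.94 on RBFOX2 arrays. The 3 groups did not overlap, with RBFOX2 between the other 2. Of the 24, 22 were lower on the arrays labelled CPSF3 knockdown, 19 of them by more than 0.5, with a median change of -0.95; the median was -0.25 on RBFOX2 arrays.

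The other 46 probe sets of CDH23 lay closer together between groups. Their median signal was 8.15 ± 0.10 (SD, n = 3) on control arrays, 8.08 ± 0.03 on arrays labelled CPSF3 knockdown and 8.22 ± 0.05 on RBFOX2 arrays, with median changes of -0.12 and -0.03. The first 24 were brighter, at 9.50 ± 0.07 (SD, n = 3) on control arrays, and changes of weak probe sets are compressed. The part of signal in this division was not tested. All 7 probe sets of CDH23 that were called with the mean as gene level were among the 24. The lowest of them were 3251163 at -1.37 ± 0.24, 3251167 at -1.36 ± 0.14, 3251165 at -1.13 ± 0.19 and 3251164 at -1.03 ± 0.15 (SE; adjusted p of 0.049, 0.018, 0.0431 and 0.0318, limma). The mean signal of 3251163 was 7.97 on control arrays, 6.23 on arrays labelled CPSF3 knockdown and 7.78 on RBFOX2 arrays. On the arrays labelled CPSF3 knockdown it was thus below the signal minimum, and the other groups carried this probe set past the filter. The exon signal of 3251167 was 1.11, 1.18 and 1.40 on control arrays, -0.38, 0.04 and -0.42 on arrays labelled CPSF3 knockdown and 0.35, 0.67 and 0.39 on RBFOX2 arrays, 3 groups that did not overlap. The division after the 24th probe set was chosen after the values were seen, and whether identifiers are numbered along the gene is not stated in the labels or the files.

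**Figure D5:**
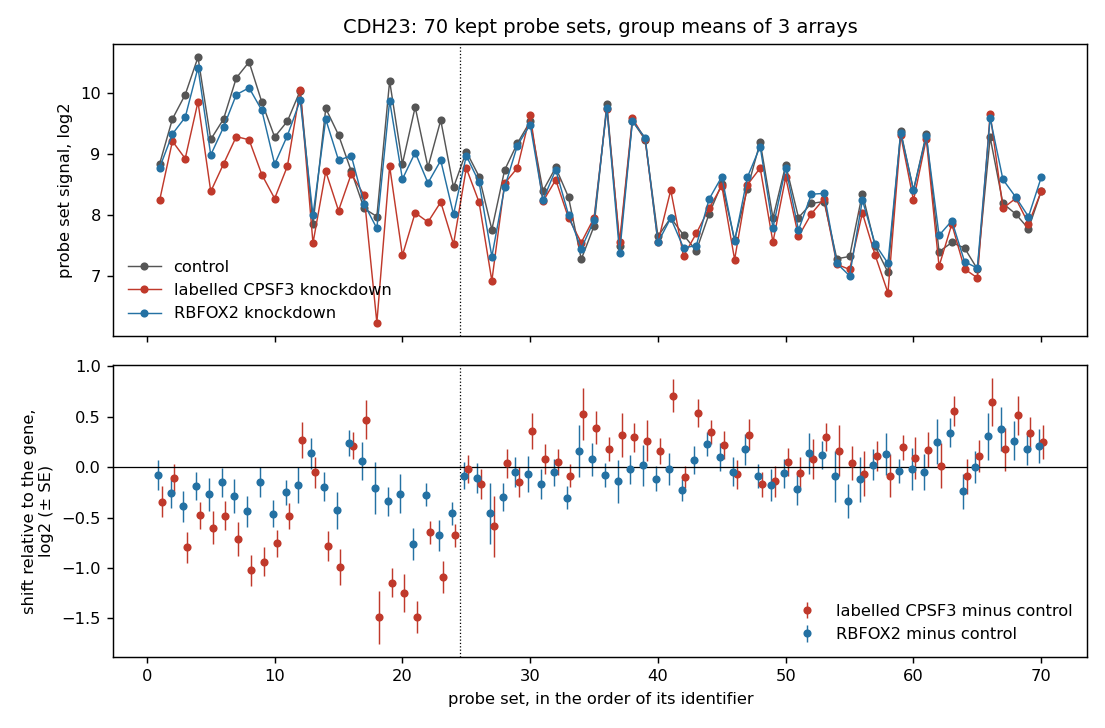
CDH23, 70 kept probe sets in the order of their identifiers. Upper panel, mean log2 signal of each group; lower panel, shift relative to the gene's median level (± SE); the dotted line follows the 24th probe set, before which the median change on the arrays labelled CPSF3 knockdown is -0.95 and after which it is -0.12.

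A division into a first and a second stretch of equal size by identifier was made, after CDH23 had been seen, for the 93 very long genes with at least 20 kept probe sets. The difference between the median changes of the stretches on the arrays labelled CPSF3 knockdown had a median of 0.00 and an interquartile range of -0.07 to 0.06, and it exceeded 0.3 in either direction in 5 genes. CDH23 was the lowest at -0.66. FBN2 was the highest at 0.43, with a change of 0.31 in its first stretch and -0.12 in its second; on RBFOX2 arrays these were 0.38 and -0.06, against the same control arrays. LRP2 followed at 0.42 (0.24 and -0.18), MYCBP2 at 0.41 (0.81 and 0.40) and USP24 at 0.33 (0.58 and 0.25). In LRP2 the RBFOX2 arrays showed no such division (0.09 and 0.13). First minus second, the median control signal differed by 1.16 in CDH23, 0.30 in FBN2, -0.67 in LRP2, -0.08 in MYCBP2 and -0.39 in USP24. The part of signal in the divisions was not tested. All these values are descriptions with no test.

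The spread of probe set changes in very long genes and in genes of 10 to 20 probe sets depended on the measure, and neither was tested. The interquartile range of the changes within a gene had a median of 0.27 against 0.23 on the arrays labelled CPSF3 knockdown and of 0.24 against 0.20 for RBFOX2. This range was taken over far fewer probe sets in the smaller genes, which limits the comparison. Pooled over genes, the quartiles of the exon signal shifts were -0.142 and 0.143, against -0.147 and 0.149, on the arrays labelled CPSF3 knockdown. For RBFOX2 they were -0.126 and 0.128, against -0.127 and 0.130. The share of a gene's exon signals with an unadjusted p under 0.05 on the arrays labelled CPSF3 knockdown ran from 0% to 42.9%, with a median of 8.33%. MUC16 (42.9%), CDH23 (38.6%), LAMA1 (28.9%), LRP1 (28.8%), LRP2 (28%) and HSPG2 (27.5%) had the highest shares, and MUC16, LAMA1, LRP1 and HSPG2 are also among the called gene levels.

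Genes next to the limit of 80 probe sets were read on both sides of it. The 4 genes just inside, with 80 or 81 probe sets, had levels of 8.18 to 9.30 and changes of -0.06 to 0.34 on the arrays labelled CPSF3 knockdown. The 9 genes just outside, with 78 or 79, had levels of 7.47 to 8.88 and changes of -0.90 to 0.38; the lower end was 1 gene, ABI3BP, and the next was FBN1 at -0.25, both named after their values were seen. Without the 9 symbols of near-identical copies or an unnamed locus, 13 of 88 genes were called on the arrays labelled CPSF3 knockdown (limma). That was 14.8%, against 14.4% of all genes. Under RBFOX2 knockdown 0 were called, where 0.173% of all genes were (limma).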

How the data were processed

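The authors deposited log2 signals of probe sets from Affymetrix Human Exon 1.0 ST arrays, 1 per probe set and array, 3 arrays in each of 3 groups. The authors used RMA and Affymetrix Power Tools with build hg18, per the submitters' processing notes; the Exon Array Computational Tool is named in the series description. Versions: not given in the sources used here. Since RMA gives the arrays a common distribution, a shift of most transcripts together would be removed, and changes of weak probe sets are compressed.

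Of 1384231 probe sets, 354600 had 1 symbol in the platform annotation, 14898 several and 1014733 none. Older symbols were updated through RefSeq synonyms that belong to 1 gene (16426 current, 2950 updated, 121 kept). Size was counted on platform symbols; DNHD1 and RNF213 reach 80 only when older symbols are merged and are not members. After updating, MACF1 gained probe sets of an older symbol, so 10651 probe sets were analysed. Probe sets with a mean over the 9 arrays at or above 6.97 were kept. A gene level was the median of at least 3 kept probe sets (16748 genes) and exon signal the value minus it, in genes with at least 5 (257548 probe sets).

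All features were fitted in 1 model of 3 groups with lmFit and eBayes (limma 3.58.1 and version 1.17.8 of data.table in R 4.3.3), 2-sided, adjusted by Benjamini-Hochberg at 0.05 over all features of a comparison, and checked on data made with known changes. With 3 arrays in each of the groups compared, the smallest p of an exact permutation test is 0.1. Alternatives were leaving the signal filter out or setting it at the upper quartile, centred arrays, quantile normalisation, each array left out, a replicate block, only the compared groups, variance trend with robust fitting, array weights, the mean as gene level, at most 12 probe sets per gene, limits of 60 and 100 probe sets and, added after seeing the data, no multi-copy symbols.

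The members and lists were chosen with earlier results of these data known. Named were the targets, the 5 members with most probe sets, up to 10 called rises and falls per comparison whose arrays do not overlap (otherwise the 5 smallest p), the highest and lowest change per family, the 3 steadiest of high level, and for exons up to 5 called shifts each way in the setting that calls any, otherwise the 5 smallest p; unnamed loci were passed over. CDH23's gene level, the stretches of genes and the promoters were added after values were seen. Protein lengths were not analysed here.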

Additional observations from a re-analysis of the deposited data

How the results depend on the processing

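The medians of the very long genes, and their differences from genes of 10 to 20 probe sets, moved by less than the spread between arrays in every setting run, and 0 very long genes were called for RBFOX2 in any of them. Against control, 13 very long genes called on the arrays labelled CPSF3 knockdown became 7 without a signal filter (7.22%, against 9.2% of all genes). With the mean as gene level they became 20 (20.6%, against 21.1%), and with array weights 19 (19.6%, against 28.8%). At a limit of 100 probe sets 7 of 41 were called (17.1%, against 14.4%), and at 60 there were 44 of 295 (14.9%, against 14.4%). When 1 array was left out there were 3 to 15. The count was 3 without labelled CPSF3 replicate 1, 4 without control replicate 1 or 2 and 15 without control replicate 3. Of the 10 called with at most 12 probe sets per gene (10.3%, against 13.4% of all genes), 8 were among the 13. For the arrays labelled CPSF3 knockdown against RBFOX2, 0 became 2 with array weights (2.06%, against 3.59% of all genes). With the mean there were also 2 (2.06%, against 0.836%). Called exon probe sets of very long genes on the arrays labelled CPSF3 knockdown went from 0 to 16 with the mean (0.21%, against 0.263% of all probe sets), 18 with variance trend and robust fitting (0.236%, against 0.3%), 40 with array weights (0.525%, against 0.752%) and 0 to 61 when 1 array was left out (61 without control replicate 3, 0.801% against 1.49%); for RBFOX2 they were 0 to 5, with 5 without control replicate 3 (0.0657%, against 0.32%). The cause was not tested, except that other limits count other genes.

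Same-numbered arrays were not steadily alike: their correlations ran from -0.14 to 0.33, and 4 of 9 arrays correlated best with their own number. With the replicate block 13 very long genes were called on the arrays labelled CPSF3 knockdown (13.4%, against 15.3% of all genes), and the 13 were the same genes. For RBFOX2 0 were called with the block, against 0.818% of all genes, where 0.173% of all genes were called without it. The number of arrays, 3 a group, limits the precision of all changes, and weak probe sets limit the 21 genes with few probe sets above the minimum.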
